A study of Saccharomyces cerevisiae with 9 samples.

Results

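The genes described here are 10 iron regulators and iron-sparing genes of budding yeast, AFT1, AFT2, YAP5, TIS11 (also named CTH2), CTH1, HMX1, VHT1, CCC1, ISU1 and ISU2. They were chosen by name, and each had 1 probe among the 6256 probes of the array. When iron runs short, the transcription factors Aft1 and Aft2 switch on the genes for iron uptake, and the RNA-binding proteins Cth1 and Cth2 bind messenger RNAs of iron-using proteins and speed their decay, so that iron is spared for the processes that cannot do without it. When iron is plentiful, Yap5 raises CCC1, which moves iron into the vacuole. The iron-sulfur clusters that are built on the scaffold proteins Isu1 and Isu2 are part of the signal by which Aft1 and Aft2 sense iron.

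Diploid strains of Saccharomyces cerevisiae that use xylose were compared (3 in all), namely the thermotolerant strain Sun049T-Z, the acid-tolerant strain Sun224T-K, and Hyb-8, a hybrid of both. Cells of all strains were first grown in glucose medium. They were then moved to xylose (50 g/L) at 38°C with acetic acid (20 mM) and formic acid (15 mM) under microaerobic conditions. RNA was taken 3 h into this fermentation. Each strain carried a plasmid with the xylose genes XYL1 and XYL2 of Scheffersomyces stipitis and XKS1, selected with clonNAT. One HO copy was replaced by a zeocin resistance cassette in Sun049T-Z (HO/Δho::loxP-Sh Ble-loxP) and by a G418 resistance cassette in Sun224T-K (HO/Δho::loxP-KanMX-loxP). Hyb-8 is a single isolate, obtained by UV mutagenesis of the parental strains, sporulation, mating and selection for growth under heat and acids, so that its values describe this isolate and not hybrids in general. Each strain was hybridized to 3 single-color arrays, and the sources do not say whether the 3 RNA samples came from separate fermentations. The p-values then measure the spread between these arrays, which may be technical.

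Levels are given as the log2 intensity of a probe relative to the 75th percentile of its array, so that 0 lies at that percentile. They rank strains for a given gene, not genes against each other. The intensity at the 75th percentile ranged from 1044 to 4830, and the share of spots clearly above background from 90.2% to 96.5%, with Sun049T-Z replicate 1 lowest in each. On it the 7 spots of a probe had a median log2 SD of 0.324 (0.067 or less on the other arrays), and for the 10 iron genes this SD reached 2.70 (HMX1), against at most 0.117 elsewhere. The arrays lay on 4 slides. Slides 2 and 3 held all 3 strains, whereas Sun049T-Z replicate 1 was alone on slide 1 and Hyb-8 replicate 2 alone on slide 4. The labels call Sun224T-K and Hyb-8 PHO13-deleted and Sun049T-Z the control. The PHO13 level (YDL236W, chromosome IV) was -3.78 ± 0.10 (SD, n = 3) for the label Sun049T-Z, -1.56 ± 0.31 for the label Sun224T-K and -1.72 ± 0.02 for the label Hyb-8, which went against that genotype. The strain names below are those of the labels. Most genes that mark haploid or sporulating cells were above background, as were 90.2% to 96.5% of all spots on an array. Of 13 haploid-specific genes, 11 or 12 were well above background on all 3 arrays of each strain, with summed linear levels of 1.05 to 1.55 times the 75th percentile. Of 14 sporulation genes, 11 or 12 were, with summed levels of 0.6404 to 0.891, and SPO13 stayed at background in Hyb-8. MFA2, a haploid-specific gene, and SPO13 were not tested, as in no strain were they well above background on all 3 arrays. In the order Hyb-8 over Sun049T-Z, Hyb-8 over Sun224T-K and Sun224T-K over Sun049T-Z, 3, 0 and 2 of 12 haploid-specific genes tested and 3, 0 and 4 of 13 sporulation genes tested were called (at least 2-fold, adjusted p under 0.05). Of all probes tested, 18.5%, 1.24% and 20.1% were called in the same order, and nothing is read from these counts. The part of these genes in the results was not tested.

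A gene was called when it differed at least 2-fold with an adjusted p under 0.05 (limma over 5947 probes, Benjamini-Hochberg). All 10 iron genes were well above background on all 9 arrays and were tested. Hyb-8 over Sun049T-Z, 5 of the 10 were called, with TIS11, HMX1, AFT1 and YAP5 higher and VHT1 lower, where 18.5% of all probes tested were called. Hyb-8 over Sun224T-K, TIS11 alone was called, higher in Hyb-8, where 1.24% of all probes were called. Sun224T-K over Sun049T-Z, 3 were called, with HMX1 and YAP5 higher and VHT1 lower, where 20.1% of all probes were called. Each pair of these comparisons shares the arrays of a strain. Against the parental strains together, TIS11 was among the 20 genes (0.336%) called higher in each comparison of Hyb-8, and 0 of the 10 genes were among the 13 (0.219%) called lower in each. In RNA of a whole culture, a change per cell and a change in the share of cells cannot be told apart. The 3 counts were the same without Sun049T-Z replicate 1, on slides 2 and 3 alone, and with the slide as a fixed term.

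**Figure D1:**
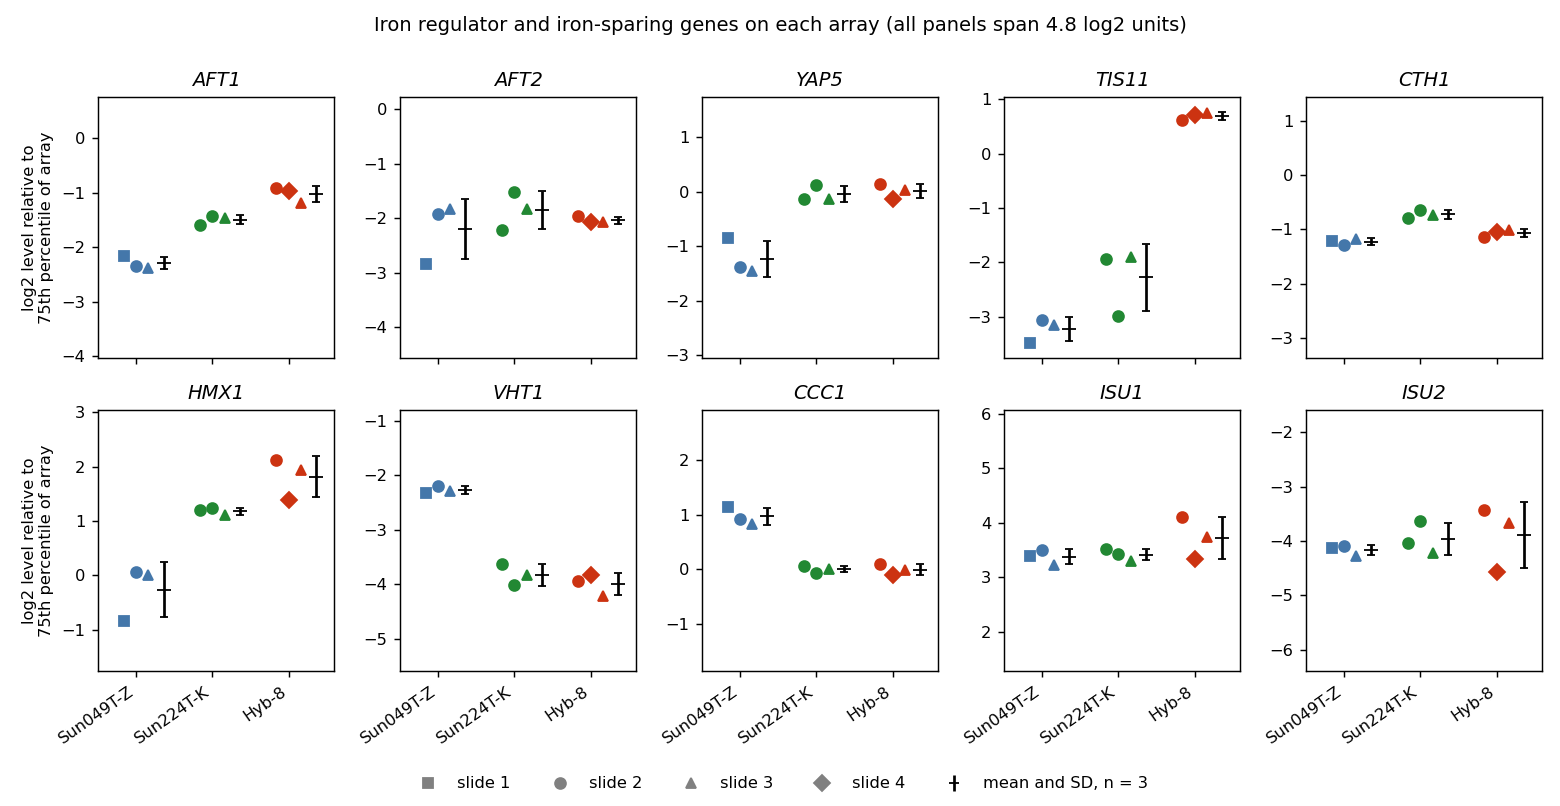
Log2 level (relative to the 75th percentile of the array) of each of the 10 iron genes on the 9 arrays, with a point per array, its shape giving the slide, and the mean and SD of the 3 arrays of a strain in black. TIS11 lies between 0.62 and 0.75 on the Hyb-8 arrays and at -1.90 or lower on all parental arrays, whereas CCC1 and VHT1 separate Sun049T-Z from the other strains.

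TIS11 (YLR136C, chromosome XII) encodes Cth2, which is made during iron starvation and marks messenger RNAs of iron-using proteins for decay. On all Hyb-8 arrays AFT1 and HMX1 also lay above both parental strains, but over Sun224T-K they were 1.38-fold and 1.55-fold higher and not called. Of all probes tested, 65.6% did not overlap between Hyb-8 and Sun049T-Z, and 30.4% between Hyb-8 and Sun224T-K. Nothing is read from this separation of AFT1 and HMX1. Of the 10 genes, only TIS11 was called in Hyb-8 against each parental strain. The study also measured it by qRT-PCR, and the primers are shown because they name the stretch of the transcript chosen there (all letters lower case, as no part was singled out).
Forward primer TIS11-RT-F: ggtgaaaagccaagtgcagg
Reverse primer TIS11-RT-R: gtccgtgagcaaactgacac
Each has a length of 20 bases and a GC content of 55%.

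The array probe of TIS11 was at 0.62, 0.72 and 0.75 on the Hyb-8 arrays. It was at -1.94, -2.99 and -1.90 on the Sun224T-K arrays, and at -3.48, -3.06 and -3.15 on the Sun049T-Z arrays. The Hyb-8 arrays lay far above all others, Sun224T-K replicate 2 was close to the Sun049T-Z arrays, and no groups overlapped. Relative to Sun049T-Z, the log2 fold change of Hyb-8 was 3.92 (SE 0.26, adjusted p = 3.24e-06 from limma), a 15.2-fold difference. Relative to Sun224T-K it was 2.97 (SE 0.26, adjusted p = 0.000451 from limma), or 7.84-fold, the highest value among the 5947 probes tested in that comparison. Within slide 2 these differences were 3.67 and 3.08, and within slide 3 they were 3.90 and 2.65. Across the alternative settings the log2 fold change stayed between 3.53 and 4.01 over Sun049T-Z and between 2.61 and 3.16 over Sun224T-K, and it was called in each of them. TIS11 was on the list that the study chose from these same samples, so its increase is not independent evidence for that list.

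Between the parental strains, TIS11 was 1.93-fold higher in Sun224T-K (log2 fold change 0.95, SE 0.26, adjusted p = 0.0119 from limma), under the 2-fold threshold. Without Sun224T-K replicate 2 the log2 fold change was 1.31 (adjusted p = 0.00011 from limma) and without Sun049T-Z replicate 2 it was 1.04 (adjusted p = 0.02 from limma), both past the threshold. With the slide as a fixed term it was 0.87, with an adjusted p of 0.0696 from limma.

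CTH1 (YDR151C, chromosome IV), the paralog of TIS11 whose protein also binds and destabilizes messenger RNAs early in iron shortage, did not follow it. CTH1 was at -1.14, -1.04 and -1.01 in Hyb-8, at -0.80, -0.65 and -0.73 in Sun224T-K, and at -1.21, -1.29 and -1.17 in Sun049T-Z. The Sun224T-K arrays were the highest, and the Hyb-8 arrays lay just above those of Sun049T-Z without overlap. Relative to Sun049T-Z, CTH1 in Hyb-8 had a log2 fold change of 0.16 (95% confidence interval -0.05 to 0.37, adjusted p = 0.173 from limma). Relative to Sun224T-K it was -0.34 (95% confidence interval -0.55 to -0.13, adjusted p = 0.0699 from limma). Both intervals end well short of the change of TIS11. CTH1 was 1.41-fold higher in Sun224T-K than in Sun049T-Z (limma, adjusted p = 0.00154). When the arrays were scaled to ACT1, the log2 fold change between the parental strains was 0.18, with an adjusted p of 0.288 from limma.

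Of the 3 transcription factors, AFT1 and YAP5 were called higher in the hybrid relative to Sun049T-Z and AFT2 was not called. AFT1 (YGL071W, chromosome VII), the main activator of the iron regulon, was at -0.91, -0.97 and -1.18 in Hyb-8. It was at -1.58, -1.43 and -1.46 in Sun224T-K and at -2.16, -2.35 and -2.37 in Sun049T-Z. The strains formed 3 separate groups in the order Sun049T-Z, Sun224T-K, Hyb-8. Relative to Sun049T-Z, AFT1 was 2.42-fold higher in Hyb-8 (log2 fold change 1.27, SE 0.11, adjusted p = 1.64e-05 from limma) and 1.75-fold higher in Sun224T-K (limma, adjusted p = 0.000261). Hyb-8 over Sun224T-K, the fold change was 1.38, and the adjusted p of 0.044 from limma lay between 0.0229 and 0.127 under the alternative settings. This smaller difference was 0.60 within slide 2 and 0.28 within slide 3 on the log2 scale.

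YAP5 (YIR018W, chromosome IX), the activator that responds to high iron, was at 0.14, -0.12 and 0.04 in Hyb-8. It was at -0.14, 0.12 and -0.13 in Sun224T-K and at -0.86, -1.38 and -1.46 in Sun049T-Z. Hyb-8 and Sun224T-K overlapped fully, and every Sun049T-Z array lay below them. YAP5 was 2.38-fold higher in Hyb-8 (log2 fold change 1.25, SE 0.17, adjusted p = 0.000209 from limma) and 2.27-fold higher in Sun224T-K (log2 fold change 1.19, SE 0.17, adjusted p = 0.00028 from limma) than in Sun049T-Z. The difference between Hyb-8 and Sun224T-K was 0.06 (95% confidence interval -0.31 to 0.44). Scaled to ACT1, the increase in Sun224T-K was 0.86 and no longer reached 2-fold.

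AFT2 (YPL202C, chromosome XVI), the paralog of AFT1, was at -1.96, -2.06 and -2.08 in Hyb-8, at -2.22, -1.51 and -1.83 in Sun224T-K, and at -2.84, -1.92 and -1.84 in Sun049T-Z. The 3 strains overlapped. The lowest value came from Sun049T-Z replicate 1, where 5 of the 7 AFT2 spots were well above background and their SD was 2.17. The log2 fold change in Hyb-8 over Sun049T-Z was 0.16 (95% confidence interval -0.43 to 0.75), and it was -0.16 without that array. Over Sun224T-K it was -0.18 (95% confidence interval -0.77 to 0.41). The intervals exclude a 2-fold difference in AFT2 in either of these comparisons.

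HMX1 (YLR205C, chromosome XII), the heme oxygenase that frees iron from heme and a known target of Aft1, was higher in the same strains as AFT1. HMX1 was at 2.12, 1.39 and 1.95 in Hyb-8. It was at 1.19, 1.24 and 1.11 in Sun224T-K and at -0.84, 0.06 and 0.01 in Sun049T-Z. No groups overlapped, although Hyb-8 replicate 2, alone on slide 4, came close to the Sun224T-K arrays. HMX1 was 4.22-fold higher in Hyb-8 (log2 fold change 2.08, SE 0.26, adjusted p = 0.000127 from limma) and 2.72-fold higher in Sun224T-K (log2 fold change 1.44, SE 0.26, adjusted p = 0.00109 from limma) than in Sun049T-Z. On Sun049T-Z replicate 1 the HMX1 spots scattered most, and without it the log2 fold changes were 1.78 and 1.15, both still called. Hyb-8 over Sun224T-K, the log2 fold change was 0.64 (95% confidence interval 0.06 to 1.21, adjusted p = 0.182 from limma). On slides 2 and 3 alone it was 0.85 (adjusted p = 0.00706 from limma), under the 2-fold threshold.

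VHT1 (YGR065C, chromosome VII), the plasma membrane transporter for biotin, is a gene that Aft1 raises when iron is scarce, since the synthesis of biotin needs an iron-sulfur enzyme. Its differences had the opposite sign to those of HMX1. VHT1 was at -3.94, -3.82 and -4.21 in Hyb-8, at -3.62, -4.02 and -3.83 in Sun224T-K, and at -2.33, -2.19 and -2.28 in Sun049T-Z. The Sun049T-Z arrays were the highest, and Hyb-8 and Sun224T-K overlapped. VHT1 was 3.31-fold lower in Hyb-8 (log2 fold change -1.73, SE 0.14, adjusted p = 8.78e-06 from limma) and 2.95-fold lower in Sun224T-K (log2 fold change -1.56, SE 0.14, adjusted p = 1.59e-05 from limma) than in Sun049T-Z. Between Hyb-8 and Sun224T-K the difference was -0.17 (95% confidence interval -0.48 to 0.14). Of 6 other biotin genes, 0 were called in either comparison with Hyb-8 (limma, with 0 also at 2-fold and an unadjusted p under 0.05). Of all probes, 18.5% and 1.24% were called. At an adjusted p under 0.05 alone, 2 were higher and 1 lower over Sun049T-Z, and 1 was lower over Sun224T-K. Of all probes, 56% and 5.48% reached it. At a fold change of at least 1.5, 3 biotin genes were called over Sun049T-Z. BIO3, an enzyme of biotin synthesis, was higher in Sun224T-K, with a log2 fold change of 1.26 over Sun049T-Z, a call that was lost with the normexp background and with ACT1 scaling. In Hyb-8 over Sun049T-Z, BIO3 differed by 0.93 (adjusted p = 8.14e-05 from limma), under the 2-fold threshold. BIO2, the iron-sulfur enzyme that makes biotin, differed by 0.23 and -0.43 on the log2 scale in Hyb-8 over Sun049T-Z and Sun224T-K, and neither passed.

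CCC1 (YLR220W, chromosome XII), the vacuolar iron importer that Yap5 activates, was lower where YAP5 was higher. CCC1 was at 0.10, -0.11 and -0.02 in Hyb-8, at 0.06, -0.06 and 0.01 in Sun224T-K, and at 1.15, 0.93 and 0.83 in Sun049T-Z. Hyb-8 and Sun224T-K overlapped fully, and all Sun049T-Z arrays lay above them. The log2 fold change was -0.98 in Hyb-8 (SE 0.11, adjusted p = 8.87e-05 from limma) and -0.96 in Sun224T-K (SE 0.11, adjusted p = 9.19e-05 from limma) over Sun049T-Z, which is 1.97-fold and 1.95-fold lower and just short of the threshold. The call thus turned on the setting, and CCC1 passed over Sun049T-Z in Hyb-8 with quantile normalization (-1.02), with the median in place of the 75th percentile (-1.04), with ACT1 (-1.14) and in the authors' table (-1.01). In the same comparison it was further from the threshold with the slide as a fixed term (-0.84) and without Sun049T-Z replicate 1 (-0.89). TYW1 and GRX4, which Yap5 is also known to raise, were 2.70-fold and 2.16-fold lower in Hyb-8 relative to Sun049T-Z (adjusted p = 3.41e-06 and 8.09e-06 from limma). They were set beside CCC1 after their values were seen. In Sun224T-K, TYW1 was 2.47-fold lower than in Sun049T-Z, and the log2 fold change of GRX4 was -0.72 (adjusted p = 0.000108 from limma), under the threshold.

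ISU1 (YPL135W, chromosome XVI) and ISU2 (YOR226C, chromosome XV) encode paralogous scaffolds on which mitochondrial iron-sulfur clusters are built. ISU1 was at 4.11, 3.33 and 3.73 in Hyb-8, at 3.52, 3.43 and 3.30 in Sun224T-K, and at 3.40, 3.49 and 3.22 in Sun049T-Z. ISU2 was at -3.42, -4.57 and -3.66 in Hyb-8, at -4.04, -3.63 and -4.21 in Sun224T-K, and at -4.14, -4.09 and -4.28 in Sun049T-Z. For both genes the strains overlapped, and Hyb-8 replicate 2 was the lowest of the Hyb-8 arrays. Neither gene was called, with log2 fold changes in Hyb-8 over Sun049T-Z of 0.35 for ISU1 (95% confidence interval -0.06 to 0.76) and 0.28 for ISU2 (95% confidence interval -0.33 to 0.89). On slides 2 and 3 alone, which leave out that array, they were 0.56 (adjusted p = 0.0229 from limma) and 0.64 (adjusted p = 0.0309 from limma), under 2-fold. Over Sun224T-K they were 0.31 and 0.08 with all arrays.

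**Figure D2:**
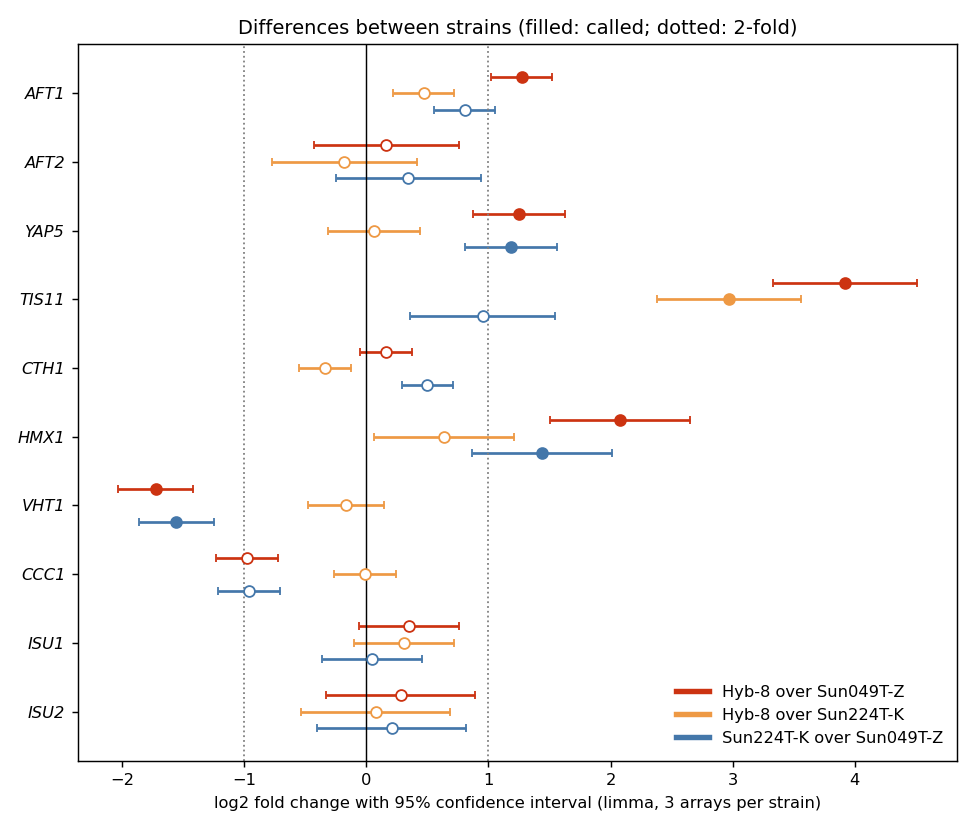
Log2 fold change of each of the 10 iron genes in the 3 comparisons (colors), with 95% confidence intervals from the limma fit over 9 arrays; filled points were called and dotted lines mark 2-fold. TIS11 is the only gene with a filled point for Hyb-8 over Sun224T-K (2.97), and the points of Hyb-8 and Sun224T-K over Sun049T-Z lie close together for YAP5, VHT1 and CCC1.

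Over all 10 genes the median log2 fold change was 0.32 for Hyb-8 over Sun049T-Z, 0.07 for Hyb-8 over Sun224T-K and 0.42 for Sun224T-K over Sun049T-Z, against 0.03, 0.01 and 0.00018 over all probes tested. An adjusted p under 0.05, with no threshold on the fold, was reached by 6, 2 and 7 of the 10 genes, where 56%, 5.48% and 58.2% of all probes reached it. The arrays of both strains did not overlap for 7, 4 and 7 genes, where 65.6%, 30.4% and 66.2% of all probes did not. The shares without overlap lay near those of all probes, and nothing about the iron genes is read from them.

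Relative to Sun049T-Z, the genes for iron uptake that Aft1 and Aft2 control were called in both directions, and in Hyb-8 over Sun224T-K only higher. Of 21 listed, 20 were tested (not FRE5). In Hyb-8 over Sun049T-Z, 6 were higher and 3 lower (9.37% and 9.1% of all probes), with a median log2 fold change of 0.61. The siderophore transporter SIT1 was 11.7-fold higher, the iron oxidase FET3 was higher by 3.34 on the log2 scale, the metalloreductase FRE6 was 5.32-fold and the iron permease FTR1 5.23-fold higher. The genes called lower were FIT2 and FIT3, cell wall mannoproteins that retain siderophores, and the reductase FRE3. Gene copy and probe match in these strains were not tested. FIT2 was at least 23.3-fold lower and FRE3 at least 56.2-fold lower in Hyb-8, since both stayed at background in Hyb-8 (the bound takes, per array, the higher of the dimmest measured probe and the probe itself). FIT3 had a mean level of -6.81 in Hyb-8, where it was well above background on 2 of 3 arrays, and of -0.11 in Sun049T-Z, and no fold is given for it. In Hyb-8 over Sun224T-K, 6 were higher and 0 lower (0.858% and 0.387% of all probes), with a median of 0.73. That median takes in FIT2 and FRE3, at background in both strains, and FIT3, at background on some arrays of each. The 6 called higher were the siderophore transporters ENB1 (5.22-fold), SIT1 (3.88-fold), ARN2 (3.59-fold) and ARN1 (3.00-fold), with FET3 (4.67-fold) and FTR1 (2.64-fold). FET3, FTR1 and SIT1 were, like TIS11, on the list that the study chose from these samples.

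Sun224T-K over Sun049T-Z, 3 uptake genes were higher and 6 lower (9.42% and 10.7% of all probes), with a median of -0.09. FRE6 (3.50-fold), SIT1 (3.02-fold) and FET3 (2.17-fold) were higher in Sun224T-K. FIT2 was at least 29.2-fold lower and FRE3 at least 70.5-fold lower there, and FIT3 was measured on 1 of 3 Sun224T-K arrays. ENB1 was 4.85-fold lower, the vacuolar iron transporter FTH1 3.73-fold and ARN2 3.48-fold.

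**Figure D3:**
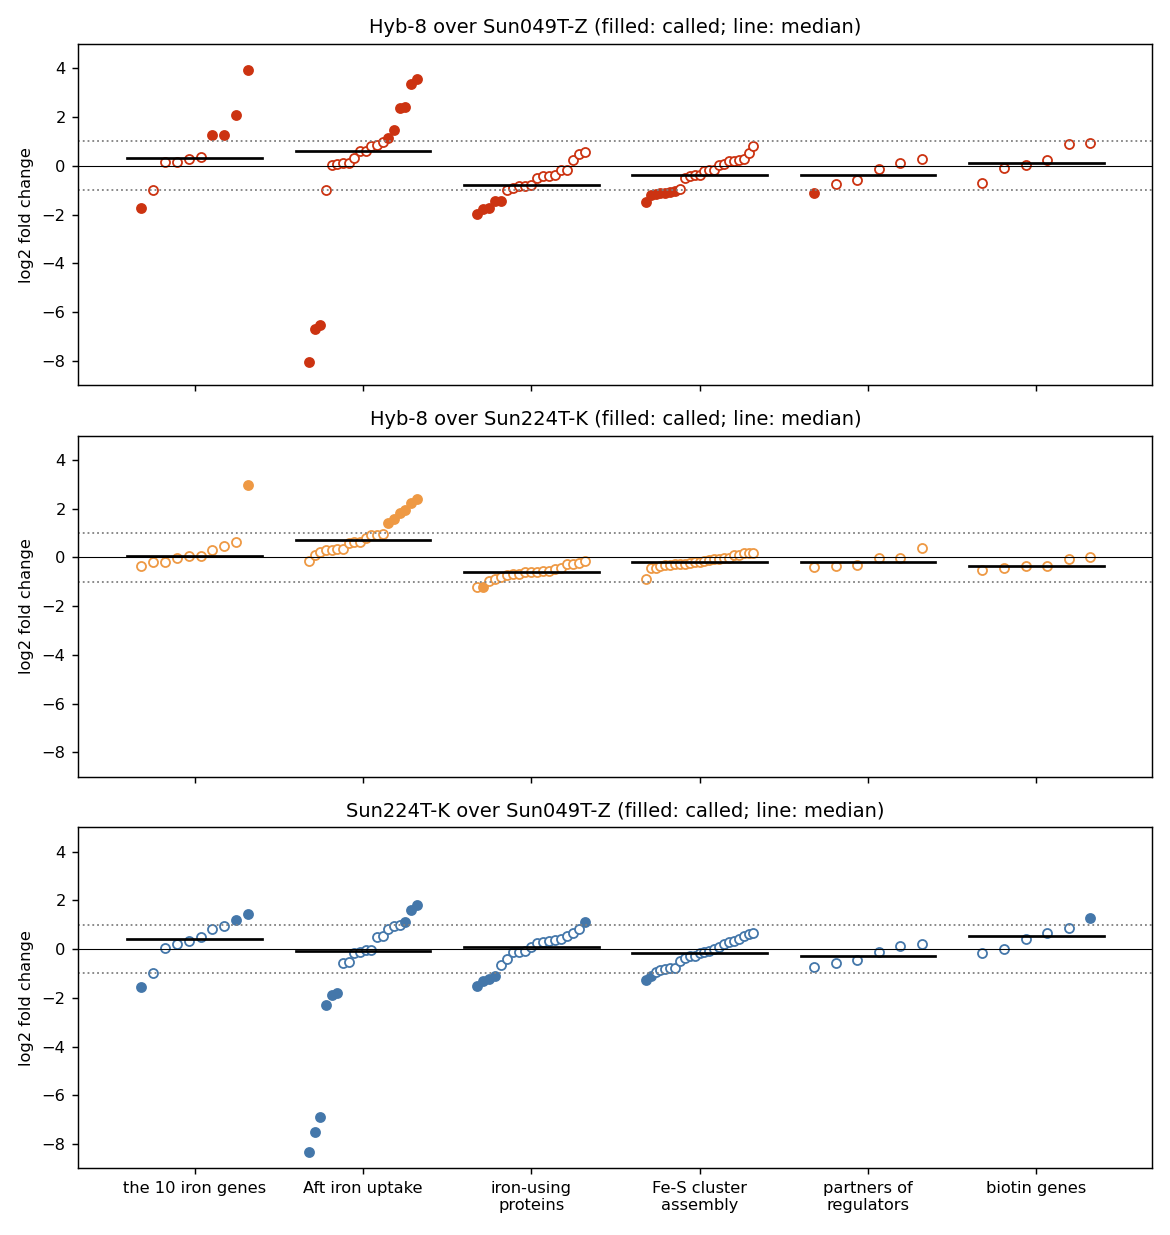
Log2 fold changes of the tested genes of each list (columns, sorted within a list) in the 3 comparisons (panels), with filled points for called genes, a line at the median of each list and dotted lines at 2-fold. The lists were chosen with earlier results of these data known. For Hyb-8 over Sun224T-K all 19 genes of iron-using proteins lie below 0 (18 with ACT1 scaling), where 52.1% of all probes lie above 0. In that panel 1 of 20 uptake genes lies below 0 (3 with quantile normalization). The 20 include FIT2 and FRE3, at background in both strains of that panel, and FIT3, at background on some arrays of each. They were tested because Sun049T-Z was above background, so their signs in that panel are not read. The points below -6 are FIT2, FIT3 and FRE3. Their fitted value is not a measured fold where the dimmer strain was at background.

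Of 19 genes of iron-using proteins, many of them known targets of Cth2, all 19 were tested and all had a log2 fold change below 0 in Hyb-8 over Sun224T-K, with a median of -0.60. Of all probes tested, 52.1% lay above 0 there. The 19 genes were read on the same arrays, so their signs are not independent. The list was also chosen with earlier results of these data known, so the count of signs is a description and not a test. With the arrays scaled to ACT1, 18 of 19 lay below 0 and the median was -0.44. The call was passed only by SDH2, the iron-sulfur subunit of succinate dehydrogenase, which was 2.30-fold lower (adjusted p = 0.00596 from limma), where 0.387% of all probes were called lower. With quantile normalization 3 were called, and with the slide as a fixed term 0. An adjusted p under 0.05 alone was reached by 9 genes, all lower, and by 5.48% of all probes in either direction. This count was 4 with ACT1 scaling and 5 with the slide as a fixed term. It fell to 2 without Sun224T-K replicate 3, to 3 when Sun224T-K replicate 1, replicate 2 of Hyb-8 or replicate 3 of Hyb-8 was left out, to 4 without Sun049T-Z replicate 2 and to 5 without Sun224T-K replicate 2. It was 11 without Sun049T-Z replicate 1. Of the genes called, 0 were left without Hyb-8 replicate 2. Their number was 3 when Sun224T-K replicate 2 was dropped, and 2 when Hyb-8 replicate 1 or Sun049T-Z replicate 1 was dropped. TIS11 was 7.84-fold higher in the same comparison. Whether it had a part in the lower levels of these genes was not tested.

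Over Sun049T-Z, 5 genes of iron-using proteins were lower in Hyb-8 and 0 higher (9.1% and 9.37% of all probes). Of the 19, 16 lay below 0 (median -0.79), where 51.5% of all probes lay above 0. The largest decreases were those of CYC7, an isoform of cytochrome c (3.98-fold), HEM13 of heme synthesis (3.42-fold), HEM15, the ferrochelatase that puts iron into heme (3.32-fold), and CCP1, the mitochondrial cytochrome c peroxidase (2.72-fold). HEM13 uses oxygen rather than iron in its reaction, so it fits the name of the list only through heme. Sun224T-K over Sun049T-Z, 4 were lower and 1 higher (10.7% and 9.42% of all probes), with a median of 0.10, which was -0.22 when scaled to ACT1. HEM15 was 2.85-fold, TYW1 2.47-fold and HEM13 2.31-fold lower, and MET5, a subunit of sulfite reductase, was 2.14-fold higher.

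Around the scaffolds ISU1 and ISU2, 23 genes of iron-sulfur cluster assembly were tested. In Hyb-8 over Sun049T-Z, 7 were lower and 0 higher (9.1% and 9.37% of all probes), with a median of -0.38. The largest decreases were those of GRX5, a mitochondrial glutaredoxin of cluster transfer (2.80-fold), DRE2 of the cytosolic pathway (2.27-fold), YFH1, the yeast frataxin (2.22-fold), and JAC1, a cochaperone of cluster transfer from Isu1 (2.15-fold). Most of these lay near the 2-fold threshold, and the number called was 3 without Sun049T-Z replicate 1, 2 with the slide as a fixed term and 4 with the normexp background. In Hyb-8 over Sun224T-K, 0 were called by limma (0 also at 2-fold with an unadjusted p under 0.05) and 3 reached an adjusted p under 0.05, all lower, where 5.48% of all probes reached it in either direction. This count was 1 with any single array other than Sun049T-Z replicate 1 left out, and also with the slide or the replicate number as a fixed term. Sun224T-K over Sun049T-Z, GRX5 (2.42-fold) and DRE2 (2.16-fold) were lower, where 10.7% of all probes were, and the count of 2 became 7 with ACT1 scaling and 1 with the normexp background. Of 6 partners of the iron regulators, such as the glutaredoxin GRX4 that binds Aft1, only GRX4 in Hyb-8 over Sun049T-Z was called, lower in Hyb-8. In that comparison 9.1% of all probes were called lower. With outlier spots kept 0 partners were called there, and with ACT1 scaling 1 was called in Sun224T-K over Sun049T-Z. In each comparison with Sun049T-Z, 3 of the 6 reached an adjusted p under 0.05, all lower. Of all probes, 56% and 58.2% reached it.

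The profiles over the 9 arrays were set against those of all other tested probes by Pearson's r, as a description over arrays that share strains and slides. The probes most like TIS11 were SOA1, a sulfur compound transporter (r = 0.991), YIP5 (r = 0.984) and FET3 (r = 0.976), and 14 probes had an r over 0.95. SOA1 had mean levels of -4.03, -3.17 and -0.81 for Sun049T-Z, Sun224T-K and Hyb-8, and YIP5 followed the same order over a much smaller span, from -1.01 to -0.62. The profiles of VHT1 and CCC1, which separate Sun049T-Z from the other strains, were shared widely. For VHT1 330 probes had an r over 0.95, led by YKL091C (r = 0.996), the soluble fumarate reductase FRD1 (r = 0.994) and ECM34 (r = 0.993). For CCC1 383 probes did, among them RAM1, a subunit of farnesyltransferase (r = 0.995), and YJR098C (r = 0.994).

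The qRT-PCR reference gene of the study, ACT1, had levels of 2.85 ± 0.12 (SD, n = 3) for Sun049T-Z, 3.17 ± 0.10 for Sun224T-K and 3.01 ± 0.10 for Hyb-8. Scaling to ACT1 moved the median of all probes by -0.16 for Hyb-8 over Sun049T-Z, 0.16 for Hyb-8 over Sun224T-K and -0.32 for Sun224T-K over Sun049T-Z on the log2 scale. It changed the split of all genes called higher and lower from 557 and 541 to 418 and 714, from 51 and 23 to 92 and 17, and from 560 and 634 to 336 and 1069, in the same order.

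**Figure D4:**
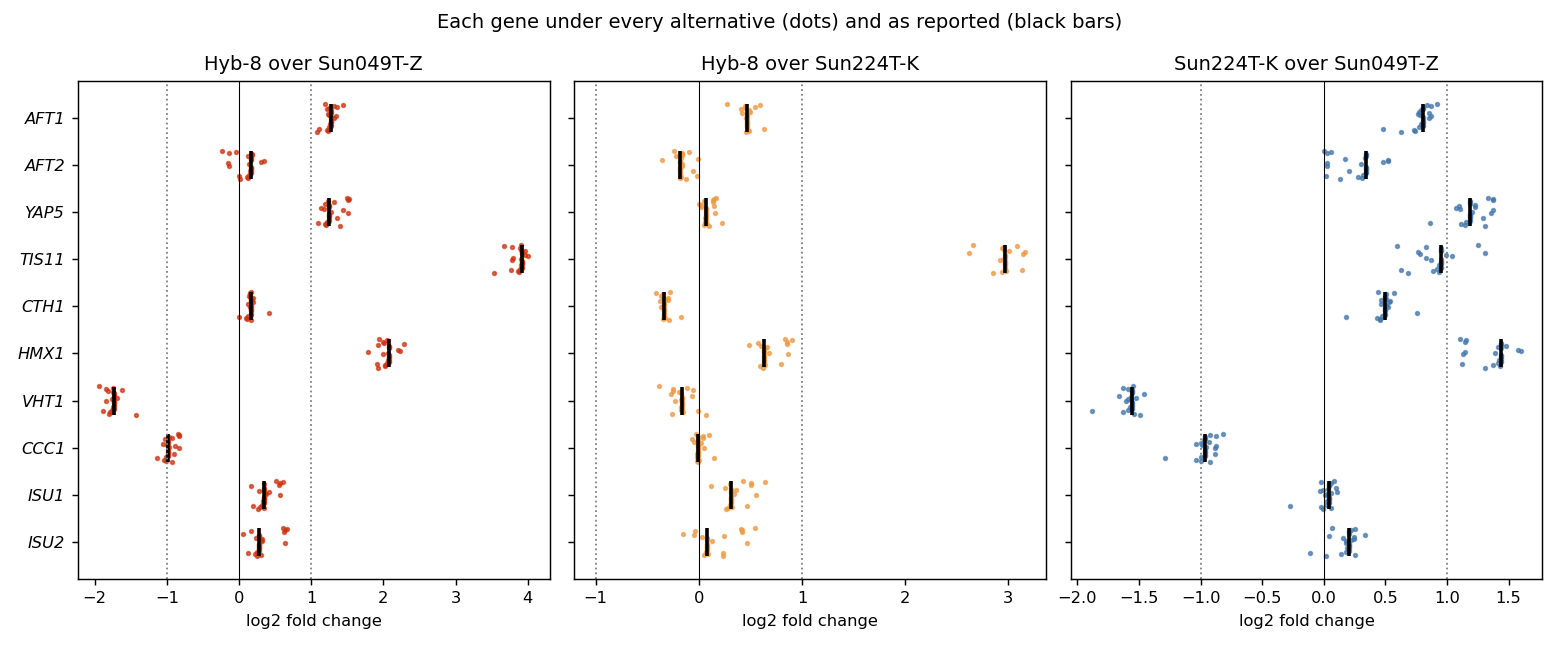
Log2 fold change of each of the 10 iron genes under every alternative setting (dots, within-slide values included) and as reported (black bars), with a panel per comparison and dotted lines at 2-fold. The dots of TIS11 lie past 2-fold in all settings against both parental strains, those of CCC1 straddle the line at -1 over Sun049T-Z, and those of AFT2, ISU1 and ISU2 stay short of 2-fold in each setting, the highest at 0.67 for ISU2 within slide 2.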

How the data were processed

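RNA of 3 strains was measured on 9 single-color Agilent yeast arrays. The authors deposited the scanner output (Agilent Feature Extraction 10.1.1.1), in which spot values are background-subtracted intensities. A processed table of log2 values from GeneSpring GX was deposited too. It correlated with the scanner values used here, centered for each probe, at r of 0.998 or more, and its column medians were 0, except 0.0817 for Sun049T-Z replicate 1. Intensities were put on the log2 scale relative to the 75th percentile of their array and averaged over the 7 spots of a probe, leaving out control and outlier-marked spots. Probes were tested where at least 1 strain had them well above background on its 3 arrays (5947 of 6256, 309 left out). Locus tags of assembly R64 gave names for 5756 probes, and 500 are named as in the files. Chromosomes follow from the systematic names.

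Strains were compared with limma 3.58.1 (lmFit and eBayes, R 4.3.3), fitted to the 9 arrays with strain as the single factor. The script was tested on simulated data. The rule for named genes took the 10 iron genes, ACT1, up to 4 called genes per list with the largest change in a comparison, and the 3 probes most correlated with TIS11, VHT1 and CCC1, of which 1 is not reported here. The other uptake genes, BIO2, the labeled deletion PHO13, and TYW1 in Hyb-8 over Sun049T-Z fall outside it and were named after their values were seen. Genes and lists were chosen with earlier results of these data known. BIO2 and ISA1 stand on 2 lists. Promoter, protein and probe sequences were not used here, so cross-hybridization between ISU1 and ISU2 was not checked. The match of any probe to the genomes of these strains was not checked either. The number of arrays limits the precision. Alternatives concerned the background (normexp, offset 50), the normalization, the filter, the thresholds, blocks by slide or replicate number, and leaving out single arrays.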

Additional observations from a re-analysis of the deposited data

How the results depend on the processing

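Of the counts of iron genes called (5, 1 and 3 for Hyb-8 over Sun049T-Z, Hyb-8 over Sun224T-K and Sun224T-K over Sun049T-Z), only the last moved by over 1.5 times, to 6 at a fold change of at least 1.5, where AFT1, TIS11 and CCC1 were added by construction. Leaving out 1 array at a time gave 5 to 6, 1 to 1 and 3 to 4. The following log2 fold changes, none of them called, changed sign, and the cause was not tested. VHT1 in Hyb-8 over Sun224T-K became 0.065 with the normexp background. ISU1 in Sun224T-K over Sun049T-Z became -0.0041 and -0.024 after the normexp correction and the median shift, and -0.28 with ACT1 scaling, which also took ISU2 to -0.11. CCC1 in Hyb-8 over Sun224T-K became 0.15 with ACT1 scaling, 0.047 when slide was a fixed block and 0.037 on slides 2 and 3 alone, and AFT2 in Hyb-8 over Sun049T-Z became -0.14 under both of the latter. The fit on slides 2 and 3 alone was chosen after seeing the data. With 1 array left out, AFT2 in Hyb-8 over Sun049T-Z ranged from -0.16 to 0.34, CCC1 in Hyb-8 over Sun224T-K from -0.068 to 0.037, ISU2 in Hyb-8 over Sun224T-K from -0.16 to 0.42 and ISU1 in Sun224T-K over Sun049T-Z from -0.030 to 0.11.

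CCC1 in Sun224T-K over Sun049T-Z was called with the median shift (-1.03) and ACT1 scaling (-1.29), and with Sun049T-Z replicate 3 left out CCC1 was called in both comparisons with Sun049T-Z (-1.05 and -1.03). No pairing of the arrays by the replicate numbers in the labels was seen. Of 9 same-numbered pairs, 2 had deviations that correlated above 0.1 (from -0.25 to 0.15), and 1 of 9 arrays correlated best with its own number. With 3 arrays per strain these correlations cannot show that pairing was absent. With the replicate block the counts of iron genes were 5, 1 and 3, and all genes called numbered 1103, 61 and 1193 against 1098, 74 and 1194. With the slide as a fixed block they numbered 1092, 52 and 1115. The split of all genes called higher and lower for Sun224T-K over Sun049T-Z was 371 and 551 after the normexp correction and 494 and 712 after the median shift. With 3 arrays against 3 an exact permutation test cannot give a two-sided p below 0.1.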
